A study of Mus musculus with 26 samples.

Results

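Enzymes that break down threonine and glycine, or that move carbon units from serine and glycine onto folate, were followed in KH2 cells during differentiation with retinoic acid. KH2 is a mouse embryonic stem cell (ESC) line made for inserting inducible transgenes. The genes are Tdh, Gcat, Gldc, Amt, Gcsh, Shmt1, Shmt2, Mthfd2, Mthfd1l and Phgdh, chosen by name in the GENCODE M21 annotation. Their 10 symbols match 11 of the 55471 genes of the table, since Gcat carries 2 gene identifiers. In all, 10 of the 11 passed the filter on low counts. The other, ENSMUSG00000116378.1, is a Gcat model that runs into Galr3 and had 2 counts over all 26 libraries, so Gcat below means ENSMUSG00000006378.15.

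The bulk RNA-seq libraries come from 3 genotypes, all in the KH2 line: wild type (WT), cells labelled with a knock-out of NAP1L1 alpha (alphaKO here), and cells labelled with a knock-out of NAP1L1 (fullKO here). NAP1L1 is a histone chaperone. Each genotype was harvested at days 0, 2 and 4 of retinoic acid, giving 9 groups of 3 libraries, except fullKO at day 0 with 2. Library names begin alike within a knockout genotype, which may thus be a single cell line, and line and genotype cannot then be told apart.

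Mouse ESC are known for an unusual use of threonine. TDH oxidises threonine in mitochondria, and GCAT splits the product into glycine and acetyl-CoA. The glycine cleavage system, built from GLDC, AMT, GCSH and the shared subunit DLD, then breaks glycine down and loads its carbon onto tetrahydrofolate. SHMT2 loads carbon from serine onto the same carrier, and MTHFD2 and MTHFD1L turn the loaded carbon into formate, which feeds purine and thymidylate synthesis. PHGDH opens the route that makes serine, the other source of these carbon units.

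The libraries held 13537267 to 20569706 counts, and no tested enzyme gene had fewer than 38 counts in any library. Levels are in CPM, counts scaled to a common library size by TMM, which evens out differences in RNA make-up. Nap1l1, the targeted gene, averaged 1025 CPM in WT at day 0, 599 in alphaKO and 399 in fullKO, and both knockout genotypes were lower than WT on every day. All 6 ESC markers (Pou5f1, Sox2, Nanog, Sall4, Zfp42, Esrrb) were above 1 CPM in every group, and their summed level at day 0 was 2481 to 2625 CPM in WT, 3256 to 3321 in alphaKO and 3634 to 3676 in fullKO. The 12 fibroblast markers, which would mark feeder cells, summed to 2576 to 3402 CPM in WT at day 0, 1370 to 2143 in alphaKO and 300.4 to 458 in fullKO. All 12 were called lower in both knockout genotypes at day 0 (20.9% of all genes in alphaKO, 17.7% in fullKO), and none was at 0. At day 2 the sum was 729 to 801 CPM in WT, 279 to 350 in alphaKO and 139 to 147 in fullKO. At day 4 it was 1542 to 1636 CPM in WT, 790 to 883 in alphaKO and 636 to 683 in fullKO. The 6 neural progenitor markers summed to 602 to 684 CPM in WT at day 4, 307 to 354 in alphaKO and 245 to 281 in fullKO, and the 6 primitive endoderm markers to 231 to 237, 362 to 372 and 294 to 315. The neural sum is mostly Nes, which averaged 599 CPM in WT at day 4, 243 in alphaKO and 231 in fullKO. By gene, 4 of the 6 neural markers were called higher and 2 lower than WT in alphaKO at day 4 (median log2 fold change 1.37). In fullKO 2 were called higher and 3 lower (median -0.39). Over all genes, 28.7% were called higher and 24.0% lower in alphaKO at day 4, and 25.1% and 24.5% in fullKO. The part of these cell types in the differences between genotypes was not tested. In bulk RNA, fewer cells of a type and less RNA per cell cannot be told apart.

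In WT cells the whole group of enzymes fell with retinoic acid. All 10 tested genes were lower at day 2 than at day 0, with a median log2 fold change of -1.45 against 0.06 over all genes, and all 10 were lower at day 4, with a median of -2.58 against 0.10. A gene was called when edgeR's quasi-likelihood test gave a Benjamini-Hochberg adjusted p under 0.05 over all 18412 genes tested. Many genes passed that threshold: 34.0% of all genes were called lower and 36.7% higher at day 2, and 36.7% were called lower and 40.7% higher at day 4. From day 2 to day 4, 9 of the 10 fell further, where 29.2% of all genes were called lower and 30.2% higher, and Tdh was the exception.

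Most of the enzyme genes also fell in the knockout genotypes. In alphaKO, 9 of 10 were called lower at day 2 (33.5% of all genes lower, 34.5% higher) and all 10 at day 4 (35.7% lower, 40.3% higher). In fullKO, 9 of 10 were called lower and 1 higher at day 2 (31.4% of all genes lower, 33.5% higher), and all 10 were lower at day 4 (34.6% lower, 39.5% higher). The gene that rose in fullKO, and that was not called in alphaKO at day 2, was Amt. Without replicate 1 of alphaKO at day 2, the fall of Amt in alphaKO passed the test (log2 fold change -0.14, adjusted p = 0.0300).

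**Figure D1:**
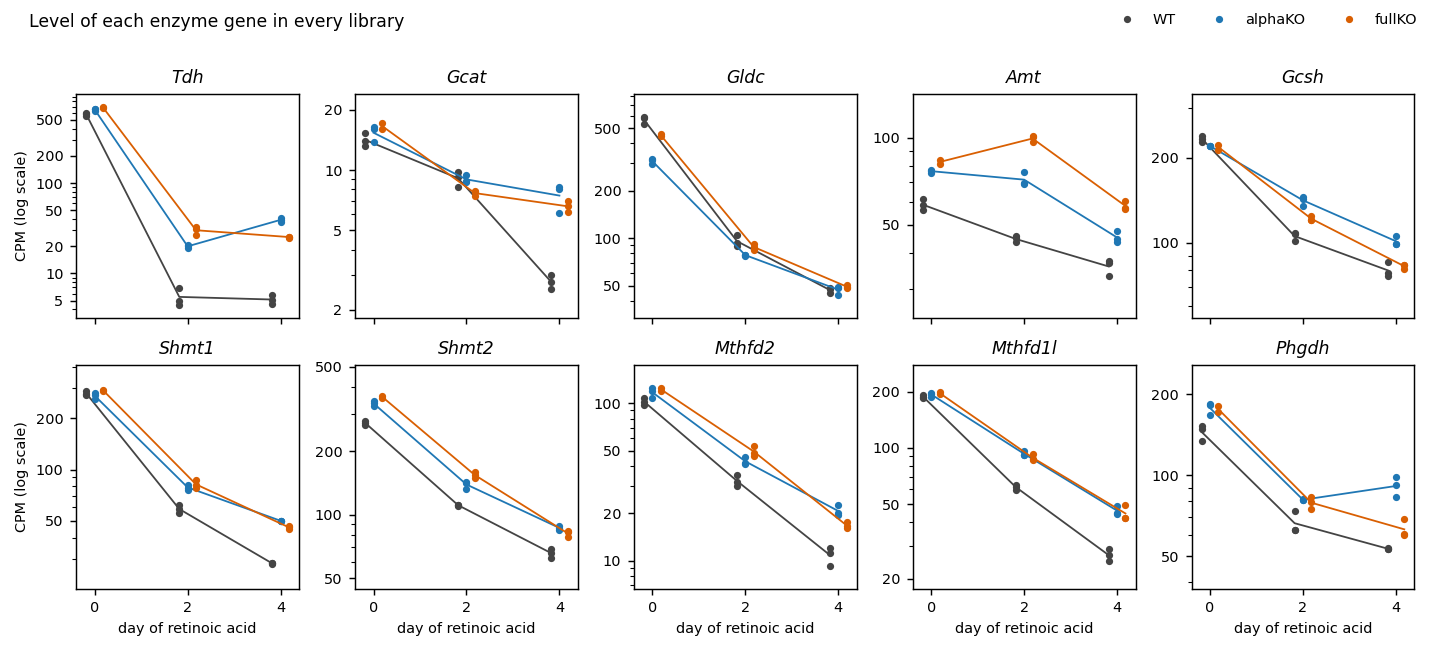
Level of each enzyme gene in CPM (log axis, a scale of its own in each panel) against the day of retinoic acid. Points are single libraries, lines join group means, and the genotypes are set slightly apart along the day axis for legibility. Tdh drops from 544 to 591 CPM in WT at day 0 to 4.54 to 6.997 at day 2, while Amt in fullKO is higher at day 2 (96.6 to 101 CPM) than at day 0 (81.0 and 83.7).

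Tdh (ENSMUSG00000021953.14, chromosome 14, 63492347 to 63509092, GRCm38), the threonine dehydrogenase, had the steepest fall of the group. In WT its level was 591, 574 and 544 CPM at day 0, 6.997, 4.54 and 4.997 at day 2, and 4.57, 5.84 and 5.06 at day 4. The day 0 libraries stood far above the others, and the libraries of days 2 and 4 overlapped. WT thus kept 0.967% of the day 0 level at day 2 and 0.904% at day 4, a log2 fold change of -6.68 ± 0.08 (SE here and for other fold changes) at day 2 and -6.78 ± 0.08 at day 4. Between days 2 and 4 the difference in WT, -0.09 ± 0.14, did not pass the test (adjusted p = 0.578).

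The knockout genotypes lost less of Tdh. At day 0 the level was 656, 660 and 624 CPM in alphaKO, and 676 and 687 for fullKO, all above every WT library, with log2 fold changes against WT of 0.18 ± 0.05 and 0.26 ± 0.05. At day 2 it was 20.9, 19.1 and 19.9 CPM in alphaKO, and 32.5, 26.6 and 31.1 for fullKO. At day 4 it was 39.4, 36.7 and 41.4 CPM in alphaKO, and 24.9, 25.4 and 25.5 for fullKO. No knockout library overlapped WT on either day, and the 2 knockout genotypes changed places: fullKO was higher at day 2 and alphaKO at day 4. Against WT the log2 fold change was 1.85 ± 0.10 at day 2 and 2.91 ± 0.10 at day 4 in alphaKO (adjusted p = 2.13e-19 and 4.7e-28), and 2.44 ± 0.10 and 2.28 ± 0.10 for fullKO (adjusted p = 4.91e-25 and 2.12e-23). Of the day 0 level, alphaKO kept 3.09% at day 2 and 6.05% at day 4, and fullKO 4.41% and 3.71%.

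The rise of Tdh from day 2 to day 4 in alphaKO was compared directly after its values had been seen. It was 0.97 ± 0.07 on the log2 scale (adjusted p = 7.36e-16), while Tdh in fullKO fell by 0.25 (log2 fold change -0.25 ± 0.07, adjusted p = 0.0023). The difference between these changes was 1.22 ± 0.10 (adjusted p = 1.18e-12). In alphaKO, 2 of the 10 genes were called higher and 7 lower from day 2 to day 4 (30.1% of all genes higher, 28.1% lower), and in fullKO none was higher and 9 were lower (29.6% higher, 28.9% lower). In the difference of these changes 4 of 10 were called higher and none lower, where 8.11% of all genes were called higher and 8.41% lower. The 4 were Tdh, Mthfd2, Phgdh and Shmt2.

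The summed level of the ESC markers did not change order in this way. Their sum was 474 to 480 CPM in WT, 855 to 874 in alphaKO and 1327 to 1449 in fullKO at day 2, and 123 to 138, 353 to 362 and 538 to 575 CPM at day 4. All 6 markers were called higher than WT in both knockout genotypes on both days. Over all genes, 19.9% and 28.7% were called higher in alphaKO at days 2 and 4, and 23.8% and 25.1% in fullKO. The sum was higher in fullKO than in alphaKO on both days. The order of the single markers between alphaKO and fullKO is not given here. The part of remaining ESC in the level of Tdh was not tested.

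**Figure D2:**
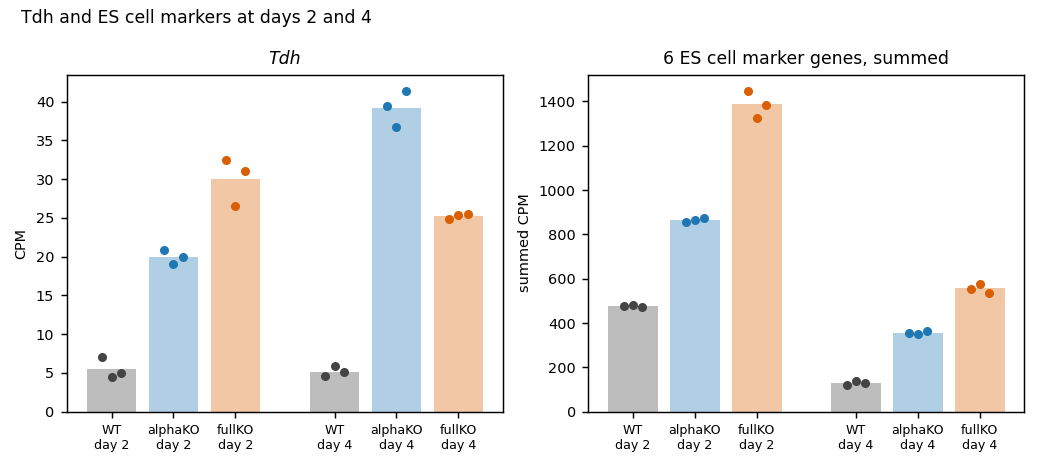
Tdh (left, CPM) and the sum of 6 ESC markers (right, summed CPM) at days 2 and 4, with points for libraries and bars for group means. For Tdh, fullKO is the highest group at day 2 (26.6 to 32.5 CPM) and alphaKO at day 4 (36.7 to 41.4), while the marker sum is highest in fullKO on both days.

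Genes near Tdh were also somewhat higher in the knockout cells, by much less than Tdh itself at days 2 and 4. The 77 tested genes within 5 Mb had a median log2 fold change against WT of 0.18, 0.27 and 0.25 in alphaKO at days 0, 2 and 4, and of 0.15, 0.21 and 0.18 in fullKO. Over all 614 tested genes of chromosome 14 the medians were 0.10, 0.12 and 0.13 in alphaKO, and 0.0003, -0.0036 and 0.013 for fullKO. At day 0 the difference of Tdh was 0.18 in alphaKO, the same as the median of its neighbours, and 0.26 in fullKO, above that median.

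Gcat (chromosome 15, 79030874 to 79038353, GRCm38) encodes the ligase that acts after TDH. It was the gene with the lowest level per exon length in WT on days 0 and 4, and fell later than Tdh. In WT it stood at 15.4, 13.2 and 13.9 CPM at day 0, at 9.78, 9.27 and 8.25 at day 2, and at 2.76, 2.56 and 2.99 at day 4. The 3 days did not overlap, and the fall from day 2 to day 4 (log2 fold change -1.71 ± 0.15) exceeded that from day 0 to day 2 (-0.64 ± 0.12). That order was not tested.

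In the knockout cells the late part of this fall was much smaller. Gcat stood at 8.67, 8.79 and 9.49 CPM at day 2 and 8.07, 6.08 and 8.23 at day 4 in alphaKO, and at 7.85, 7.75 and 7.42 and then 6.61, 7.02 and 6.15 in fullKO. Every knockout library at day 4 was above every WT library, with log2 fold changes of 1.42 ± 0.16 in alphaKO (adjusted p = 1.01e-10) and 1.25 ± 0.16 in fullKO (adjusted p = 3.74e-09). At days 0 and 2 Gcat did not pass the test in either knockout genotype (0.12 ± 0.11 and -0.02 ± 0.12 in alphaKO, 0.23 ± 0.12 and -0.24 ± 0.13 in fullKO). The fullKO libraries lay above every WT library at day 0 (16.1 and 17.1 CPM) and below every WT library at day 2. With so few libraries this is a description and carries no test. From day 2 to day 4 the change of Gcat was -0.28 ± 0.13 in alphaKO (adjusted p = 0.0588) and -0.22 ± 0.13 in fullKO (adjusted p = 0.144). The fall in alphaKO passed the test without replicate 1 (adjusted p = 0.0435) or replicate 3 (adjusted p = 0.0325) of that group at day 4, under another scaling (RLE, adjusted p = 0.0499), and with a filter at 1 CPM (adjusted p = 0.0440).

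The annotated start of Gcat holds an E-box, CACGTG, the letters that MYC and related factors bind. It is shown here in capitals with its surroundings, from RefSeq (GRCm38.p6, chr15:79030864-79030893, plus strand), because it is the sole match among the 4 motifs first searched.
Gcat: ccctgcccacgtCACGTGacggggagcact
The box spans bases 3 to 8 of the gene. Over 25114 promoter windows of 250 bases before to 50 after a start, 7.57% hold CACGTG, which reads the same on both strands. Of the 10 symbols, 9 had such a window. None of the 9 held, on either strand, the ATF4 composite site TGATGNAA (3.75% of all windows), the ESRRB site TCAAGGTCA (0.38%) or the retinoic acid repeat of 2 copies of AGGTCA in the same orientation 5 bases apart (0.01%). A match is a description of letters and no measure of binding.

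Gldc, Amt and Gcsh, the 3 subunits particular to glycine cleavage, went 3 ways in the knockout cells. Gldc (chromosome 19, 30098447 to 30175429, GRCm38), the decarboxylase, was lower in knockout cells at day 0. Its level was 587, 575 and 529 CPM in WT, 295, 312 and 316 in alphaKO, and 445 and 455 for fullKO. The 3 genotypes did not overlap, and alphaKO was lowest. The log2 fold change against WT was -0.87 ± 0.05 in alphaKO (adjusted p = 2.09e-20) and -0.32 ± 0.05 in fullKO (adjusted p = 1.22e-06). Between alphaKO and fullKO it was -0.55 ± 0.05 (adjusted p = 5.91e-12). The fibroblast marker sum had another order at day 0, lowest in fullKO, and its part in the level of Gldc was not tested. The 58 tested genes within 5 Mb of Gldc had medians against WT of -0.20 in alphaKO and -0.12 in fullKO at day 0.

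The difference of Gldc narrowed as its level fell. At day 2 it stood at 89.2, 93.4 and 104 CPM in WT, 77.4, 78.2 and 78.4 in alphaKO, and 88.1, 91.2 and 84.4 for fullKO. At day 4 the 3 genotypes overlapped, at 44.7 to 48.4 CPM in WT, 43.7 to 49.2 in alphaKO and 48.3 to 50.7 in fullKO. The alphaKO libraries were below every WT library at day 2 (-0.29 ± 0.05, adjusted p = 9.11e-06), and at day 4 the difference was 0.01 ± 0.06 in alphaKO and 0.08 ± 0.06 in fullKO, neither of which passed. In fullKO the libraries of day 2 overlapped WT, and the difference of -0.12 ± 0.05 passed narrowly (adjusted p = 0.0473). It did not pass without replicate 3 of WT at day 2 (-0.05, adjusted p = 0.444), replicate 3 of fullKO at day 2 (-0.09, adjusted p = 0.189), replicate 1 of fullKO at day 2 (adjusted p = 0.0601), replicate 3 of WT at day 4 (adjusted p = 0.0502), or any 1 alphaKO library of day 2 (adjusted p = 0.0513 to 0.0519). In WT, Gldc kept 16.97% of its day 0 level at day 2 and 8.31% at day 4. From the lower start, alphaKO kept 25.4% and 15.3%.

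Amt (chromosome 9, 108296853 to 108302302, GRCm38), the aminomethyltransferase, fell least in WT and was higher in both knockout genotypes on each day. In WT it stood at 61.2, 58.3 and 56.3 CPM at day 0, 45.5, 44.9 and 43.4 at day 2, and 33.3, 37.3 and 36.8 at day 4. In fullKO it was 81.0 and 83.7 CPM at day 0, 100.3, 96.6 and 101 at day 2, and 56.5, 60.3 and 57.3 at day 4. In alphaKO it was 77.6, 75.5 and 76.6 CPM, then 75.9, 69.3 and 69.4, then 43.4, 44.6 and 47.3. Both knockout genotypes were above every WT library on each day, and fullKO was above every alphaKO library on each day. The log2 fold changes against WT at days 0, 2 and 4 were 0.38, 0.68 and 0.33 in alphaKO (SE 0.05 to 0.06), and 0.49, 1.16 and 0.69 for fullKO (SE 0.05 to 0.06). The difference of alphaKO from fullKO was -0.11 ± 0.06 at day 0, which did not pass (adjusted p = 0.184), -0.47 ± 0.05 at day 2 and -0.36 ± 0.06 at day 4, which did. In fullKO the level at day 2 exceeded that at day 0 by 0.27 ± 0.06 on the log2 scale (adjusted p = 7.13e-05).

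Gcsh (chromosome 8, 116981810 to 116993537, GRCm38) encodes the carrier protein that takes the aminomethyl group between the other subunits. It averaged 233 ± 5.81 CPM (SD) in WT at day 0, 219 to 220 in the alphaKO libraries and 213 and 222 in fullKO. No knockout library reached WT at day 0, but the differences of -0.09 ± 0.04 and -0.10 ± 0.05 did not pass (adjusted p = 0.103 and 0.105). They did pass with DESeq2 (adjusted p = 0.0353 in alphaKO and 0.0286 in fullKO) and, in fullKO, with RLE scaling (adjusted p = 0.0438). At day 2 the order had turned: 102, 107 and 108 CPM in WT, 135, 146 and 143 in alphaKO, and 120, 120 and 125 for fullKO, with log2 fold changes of 0.42 ± 0.05 and 0.20 ± 0.05 against WT. At day 4 alphaKO (99.1 to 106 CPM) remained above WT (76.3 to 85.7), while fullKO (81.2 to 83.9) lay within the WT range. Dld, the subunit that glycine cleavage shares with other complexes, averaged 114 CPM in WT at day 0 and 117 at day 4. Against WT it was called higher in alphaKO at days 0 and 2 (0.29 ± 0.05 and 0.22 ± 0.05). At day 4 it was called slightly lower in alphaKO (-0.11 ± 0.05) and in fullKO (-0.15 ± 0.05).

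Shmt2, Mthfd2 and Mthfd1l, the mitochondrial enzymes that carry a carbon unit from serine to formate, moved nearly in parallel over the 9 groups, as did Shmt1 and Gcsh with them. Across the 9 group means of log2 CPM, Pearson's r was 0.99 between Mthfd2 and Mthfd1l, 0.99 between Shmt2 and Mthfd2, and 0.98 between Shmt2 and Mthfd1l. It was as high for Shmt1 with Shmt2 (0.99), with Mthfd1l (0.98) and with Gcsh (0.98), and Gcsh had 0.97 to 0.98 with the 3. All enzymes were lower at day 4 than at day 0 in each genotype, so these values describe a shared course and carry no test. Gldc had 0.93 to 0.94 with the 3, and Amt had the lowest correlations, 0.46 with Gldc to 0.71 with Mthfd1l. The 250 bases before the RefSeq start of the 3 genes are shown because their levels ran together. On GRCm38.p6 they are chr6:83317605-83317854 (minus strand) for Mthfd2, chr10:3972825-3973074 (plus strand) for Mthfd1l and chr10:127522445-127522694 (minus strand) for Shmt2. GENCODE M21 also has an Mthfd2 start further upstream. Beside these sequences stands that of Gldc (chr19:30175442-30175691, minus strand), which was lower than WT in the knockout cells at day 0. Each is written 5′ to 3′ on the gene's strand, and capitals mark CCAAT or its reverse ATTGG, the letters that factor NF-Y binds.
Mthfd2: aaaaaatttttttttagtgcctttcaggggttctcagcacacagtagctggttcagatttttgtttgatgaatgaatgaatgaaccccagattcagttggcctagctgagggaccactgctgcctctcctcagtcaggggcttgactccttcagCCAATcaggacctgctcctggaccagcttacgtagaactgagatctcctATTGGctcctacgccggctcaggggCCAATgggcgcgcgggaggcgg
Mthfd1l: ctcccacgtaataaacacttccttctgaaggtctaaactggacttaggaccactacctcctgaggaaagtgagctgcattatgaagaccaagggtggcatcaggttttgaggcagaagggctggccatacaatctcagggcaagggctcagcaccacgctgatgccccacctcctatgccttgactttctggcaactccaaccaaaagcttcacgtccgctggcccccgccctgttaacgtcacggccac
Shmt2: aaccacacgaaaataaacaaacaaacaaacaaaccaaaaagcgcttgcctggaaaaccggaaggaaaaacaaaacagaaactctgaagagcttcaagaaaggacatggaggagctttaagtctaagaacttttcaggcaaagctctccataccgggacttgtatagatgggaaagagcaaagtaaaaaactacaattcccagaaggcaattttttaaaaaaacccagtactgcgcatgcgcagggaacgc
Gldc: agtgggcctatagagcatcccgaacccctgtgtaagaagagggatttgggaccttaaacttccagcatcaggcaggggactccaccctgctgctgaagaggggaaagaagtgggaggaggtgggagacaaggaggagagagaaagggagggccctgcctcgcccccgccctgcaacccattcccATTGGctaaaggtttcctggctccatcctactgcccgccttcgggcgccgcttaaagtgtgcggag
Mthfd2 has 3 boxes, which begin at -96, -47 and -22 from the start, and Gldc has 1 at -66. Mthfd1l and Shmt2 have none. Over all 25114 upstream windows 34.4% have at least 1 such box and 3.04% have 3 or more. Among the 9 enzyme genes with a window, 6 have a box, Amt, Gcsh, Shmt1 and Phgdh being the others. This search was added after the values were known.

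Mthfd2 (chromosome 6, 83305691 to 83325908, GRCm38), the dehydrogenase and cyclohydrolase of the route, fell to 10.6% of its day 0 level in WT at day 4. Its level in WT was 108, 102 and 97.3 CPM at day 0, 34.9, 31.6 and 30.04 at day 2, and 11.2, 9.35 and 12.1 at day 4. At day 4 it was 19.6 to 22.6 CPM in alphaKO, and 17.7, 16.5 and 16.1 for fullKO. Neither knockout genotype overlapped WT at day 4, with log2 fold changes of 0.93 ± 0.10 and 0.63 ± 0.10. At day 0 the differences were 0.20 ± 0.06 in alphaKO, where the libraries overlapped WT, and 0.26 ± 0.07 in fullKO. These day 0 calls were lost when some single libraries were left out, which also lowers the number of libraries compared. The alphaKO difference did not pass without its replicate 3 (0.15, adjusted p = 0.0928) or without replicate 3 of WT (0.16, adjusted p = 0.0725). The fullKO call was lost without its replicate 2, which leaves 1 library in that group (0.23).

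Mthfd1l (chromosome 10, 3973118 to 4167081, GRCm38), which makes formate, showed no difference that passed at day 0. It stood at 188 ± 4.25 CPM (SD) in WT, 193 ± 5.48 in alphaKO and 196 ± 3.09 in fullKO. The fullKO libraries (194 and 198.4 CPM) lay above every WT library (183.9 to 192.4) at day 0, a description without a test. At day 2 the WT libraries stood at 61.7, 63.6 and 59.8 CPM, the alphaKO libraries at 91.1 to 96.0 and the fullKO libraries at 85.8 to 92.8. At day 4 they stood at 26.7, 28.7 and 24.8 CPM in WT, 44.5 to 49.1 in alphaKO and 42.2 to 49.4 in fullKO. The knockout libraries lay above WT on both days and overlapped each other. The log2 fold changes against WT were 0.59 and 0.79 in alphaKO, and 0.52 and 0.74 for fullKO (SE 0.05 to 0.06).

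Shmt2 (chromosome 10, 127517123 to 127522444, GRCm38), the mitochondrial serine hydroxymethyltransferase, was higher in knockout cells already at day 0. It averaged 272 ± 5.64 CPM (SD) in WT, 336 ± 10.6 in alphaKO and 362 ± 4.98 in fullKO, with log2 fold changes of 0.31 ± 0.04 and 0.41 ± 0.04. At days 2 and 4 the difference was 0.33 ± 0.04 and 0.39 ± 0.05 in alphaKO, and 0.47 ± 0.04 and 0.31 ± 0.05 for fullKO. The change from day 0 did not differ from that of WT by the test in either knockout genotype. From day 2 to day 4, the change in alphaKO less that in fullKO was 0.23 ± 0.06 (adjusted p = 0.00585). WT kept 24.3% of the day 0 level at day 4, alphaKO 25.8% and fullKO 22.6%.

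Shmt1 (chromosome 11, 60788104 to 60811718, GRCm38), the cytosolic counterpart, showed no difference that passed at day 0 and one that grew afterwards. Its log2 fold changes were -0.04 ± 0.04, 0.42 ± 0.05 and 0.83 ± 0.06 in alphaKO at days 0, 2 and 4, and 0.06 ± 0.05, 0.48 ± 0.05 and 0.70 ± 0.06 in fullKO. At day 0 the fullKO libraries (288.4 and 293 CPM) lay just above every WT library (271.6 to 287.8). At day 4 the libraries stood at 28.3, 28.2 and 28.2 CPM in WT, 50.16, 50.19 and 50.03 in alphaKO, and 44.98, 46.7 and 45.9 for fullKO, with no overlap. Shmt1 shares 184 exon bases with Smcr8 on the other strand. How the counting treated strand is unknown here, and a part of its reads may belong to Smcr8.

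Phgdh (chromosome 3, 98313170 to 98339990, GRCm38), the first enzyme of serine synthesis, did not fall further after day 2 in alphaKO. Its level in WT was 153, 148 and 134 CPM at day 0, 62.9, 62.7 and 73.7 at day 2, and 53.8, 53.2 and 53.3 at day 4. In alphaKO it was 167, 184 and 182 CPM, then 81.6, 81.2 and 80.7, then 83.2, 92.1 and 98.7. In fullKO it was 171 and 181 CPM, then 79.7, 74.9 and 82.8, then 60.4, 68.8 and 59.9. All knockout libraries lay above WT on each day, and at day 4 alphaKO also lay above fullKO. The log2 fold changes against WT were 0.29, 0.29 and 0.77 in alphaKO, and 0.28, 0.25 and 0.24 for fullKO (SE 0.06 to 0.07), and at day 4 alphaKO exceeded fullKO by 0.53 ± 0.06 (adjusted p = 2.86e-09). From day 2 to day 4 Phgdh rose in alphaKO by 0.17 ± 0.06 (adjusted p = 0.0163), a call that was lost without replicate 3 of alphaKO at day 4 (0.11, adjusted p = 0.161). In fullKO it fell by 0.33 over the same days (adjusted p = 1.6e-05), and the difference between these changes was 0.50 ± 0.09 (adjusted p = 3.47e-05).

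The order of the genes by level per exon length turned over in WT. At day 0 Tdh led with 218 CPM per kb, followed by Gcsh (148), Gldc (92.5) and Shmt2 (87.4), whose libraries overlapped, then Shmt1 (71.8), Phgdh (58.3), Mthfd1l (42.4), Mthfd2 (29.4), Amt (24.1) and Gcat (5.94). At day 4 Gcsh led with 50.8 CPM per kb, Phgdh (21.5) and Shmt2 (21.2) overlapped behind it, and Amt (14.7) had moved up past Gldc and the one-carbon enzymes Shmt1, Mthfd1l and Mthfd2. Tdh was last at day 2 (2.11 CPM per kb) and next to last at day 4 (1.97), above Gcat (1.16). At day 4 Tdh stood at 14.97 CPM per kb in alphaKO, just above Shmt1 (12.9). In fullKO Tdh stood at 9.67, and its libraries overlapped those of Mthfd1l (10.1).

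**Figure D3:**
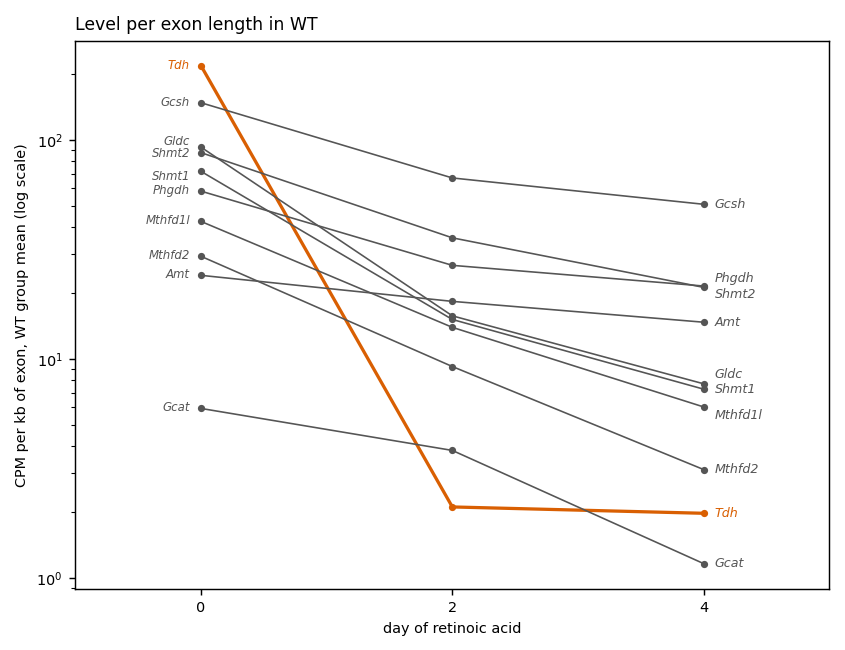
Group mean level in WT in CPM per kb of exon (log axis) against the day of retinoic acid, with 1 line per gene and Tdh in orange. Tdh goes from the highest level at day 0 (218 CPM per kb) to the lowest at day 2 (2.11), and the line of Amt is the flattest, from 24.1 to 14.7.

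Set side by side, the comparisons with WT share their WT libraries, and they ran mostly upward. At day 0, 5 of 10 genes were called higher and 1 lower in alphaKO (17.7% of all genes higher, 20.9% lower), and likewise 5 and 1 in fullKO (16.2% higher, 17.7% lower). The 5 were Tdh, Amt, Shmt2, Mthfd2 and Phgdh in both, and the lower gene was Gldc. At day 2, 8 were called higher and 1 lower in alphaKO (19.9% and 20.3% of all genes) and in fullKO (23.8% and 23.8%). At day 4, 9 were called higher in alphaKO (28.7% of all genes, 24.0% lower) and 8 in fullKO (25.1%, and 24.5% lower), and none was lower. The median log2 fold change of the 10 rose from 0.15 to 0.42 and 0.78 in alphaKO over the days, and from 0.25 to 0.48 and 0.66 in fullKO. The median over all genes tested stayed between -0.03 and 0.06. At a fold change of at least 2, Tdh and Gcat at day 4 and Tdh at day 2 remained in both knockout genotypes, and Amt at day 2 in fullKO.

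**Figure D4:**
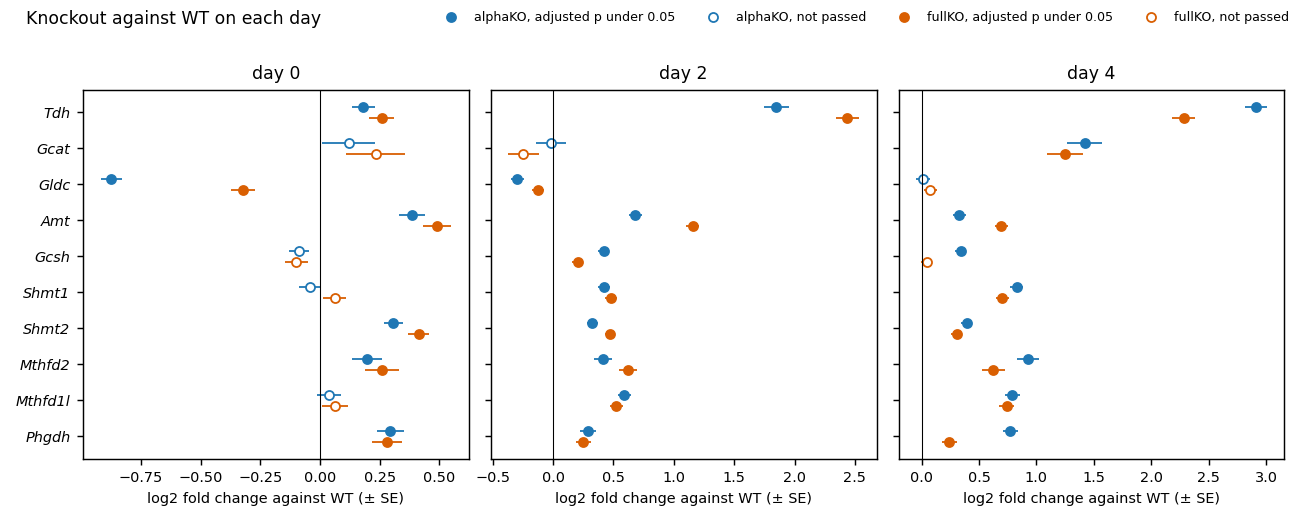
Log2 fold change of alphaKO and fullKO against WT on each day, with bars of 1 SE. Filled points had an adjusted p under 0.05, and each panel has its own horizontal scale. At day 0 Gldc is the one filled point left of 0 in each knockout genotype (-0.87 in alphaKO, -0.32 in fullKO), and Tdh and Gcat stand furthest right at day 4 (2.91 and 1.42 in alphaKO).

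Fewer genes were called between the 2 knockout genotypes than between either and WT. At day 0, 1 of 10 genes, Gldc, was called, lower in alphaKO than in fullKO, where 14.4% of all genes were called higher and 14.6% lower. At day 2, 1 was called higher in alphaKO (Gcsh, 0.22 ± 0.04) and 5 lower (Tdh, Amt, Gldc, Shmt2, Mthfd2), against 13.0% and 12.3% of all genes. At day 4, 4 were called higher in alphaKO (Tdh, Phgdh, Mthfd2, Gcsh) and Amt lower, against 17.4% and 15.4%. Tdh differed by -0.59 ± 0.07 at day 2 (adjusted p = 1.13e-08) and by 0.63 ± 0.07 at day 4 (adjusted p = 6.28e-10).

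Some of these calls were lost when 1 library was left out. At day 2, Mthfd2 (-0.21 ± 0.07) did not pass without replicate 1 of fullKO (-0.13, adjusted p = 0.228) or replicates 1 or 3 of alphaKO (adjusted p = 0.0967 and 0.0855). Shmt2 (-0.15 ± 0.04) did not pass without replicate 1 of alphaKO (adjusted p = 0.0812) or of fullKO (adjusted p = 0.0650), nor did Gldc (-0.17 ± 0.05) without replicate 2 of fullKO (adjusted p = 0.0681). At day 4, Mthfd2 (0.30 ± 0.09) did not pass without replicate 1 of alphaKO (adjusted p = 0.0588). Shmt1 at day 4 (0.13 ± 0.05, adjusted p = 0.0609) passed with RLE scaling (adjusted p = 0.0430), with another low-count filter (adjusted p = 0.0459) and with scaling that left out chromosomes 1, 14 and Y (adjusted p = 0.0480).

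The change over the days also differed from WT. From day 0 to day 2 the change was called higher in alphaKO than in WT for 6 of 10 genes and lower for none (17.5% and 14.8% of all genes), and in fullKO higher for 7 and lower for 1 (15.7% and 12.8%). From day 0 to day 4 it was higher for 8 and lower for none in alphaKO (24.2% and 19.7%), and higher for 6 and lower for none in fullKO (19.5% and 15.7%). Tdh, Gldc, Gcat, Shmt1, Mthfd2 and Mthfd1l were called at day 4 in both knockout genotypes, with differences of 2.73 ± 0.11 and 2.03 ± 0.12 for Tdh and 0.89 ± 0.07 and 0.40 ± 0.08 for Gldc. For Gldc this is the narrowing of a deficit present at day 0, and its difference from WT at day 4 did not pass the test in either knockout genotype. Shmt2 was called in neither genotype on either day (0.02 and 0.09 in alphaKO, 0.06 and -0.11 in fullKO).

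The other genes of these pathways gave a mixed picture. Their counts are set against the shares of all genes called, in WT by day 4 40.7% higher and 36.7% lower, and against WT at day 4 28.7% higher and 24.0% lower in alphaKO and 25.1% and 24.5% in fullKO. Psat1 and Psph, which complete serine synthesis after PHGDH, fell further in WT by day 4 than Phgdh, with log2 fold changes of -3.08 ± 0.05 and -2.53 ± 0.08 against -1.44 ± 0.06. In alphaKO they fell from day 2 to day 4 (-0.96 ± 0.05 and -0.71 ± 0.08), when Phgdh rose. Psat1 went from 542 ± 11.8 CPM (SD) at day 0 to 64.4 ± 4.45 at day 4 in WT, and was higher than WT at day 4 by 0.83 ± 0.05 in alphaKO and 0.56 ± 0.05 in fullKO. Of 4 tested genes of the serine list, 2 were called higher and none lower in alphaKO at day 4, and 2 higher and 1 lower in fullKO. The lower gene was Srr, the serine racemase (-0.50 ± 0.13). Of the 8 genes of glycine and threonine side routes, 2 were called higher and 1 lower in each knockout genotype at day 4. In WT 5 of the 8 fell and 1 rose by day 4, Pipox, which oxidises sarcosine and pipecolate, most (-6.86 ± 0.17). Pipox was lower than WT in both knockout genotypes at day 0 (-0.41 ± 0.09 and -0.69 ± 0.10) and higher at day 4 (1.68 ± 0.32 and 2.64 ± 0.28).

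In the folate cycle list, 7 of 17 tested genes rose and 7 fell in WT by day 4, shares near those over all genes (40.7% and 36.7%), with a median log2 fold change of -0.16 against 0.10. Mthfd2l, the close relative of Mthfd2, rose by 2.13 ± 0.19 on the log2 scale. At day 4 Tyms, the thymidylate synthase, was higher than WT in alphaKO (0.78 ± 0.06) and in fullKO (0.56 ± 0.06). In all, 5 of the 17 were called higher and 3 lower in alphaKO at day 4 (28.7% and 24.0% of all genes), and 3 and 4 in fullKO (25.1% and 24.5%), with medians of -0.01 and -0.09. Purine synthesis, which uses the formate, had 12 of 13 genes lower in WT at day 4, where 36.7% of all genes were lower, with a median log2 fold change of -1.60. In each knockout genotype 6 of the 13 were called higher and 4 lower than WT at day 4, with medians of 0.03 in alphaKO and 0.11 in fullKO. The shares over all genes are those just given. Prps1, which makes the ribose donor, was higher by 0.94 ± 0.07 in alphaKO and 0.73 ± 0.07 in fullKO.

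Of the 13 tested genes of the methionine cycle and transsulfuration, 9 fell and 2 rose in WT by day 4 (36.7% and 40.7% of all genes). Against WT at day 4, 8 were called higher and 2 lower in alphaKO (28.7% and 24.0%), and 7 and 3 for fullKO (25.1% and 24.5%). Cth, which makes cysteine from cystathionine, stood out by size: 5.11 ± 0.74 CPM (SD) in WT at day 4, 22.0 ± 1.58 in alphaKO and 28.1 ± 1.27 in fullKO, or 2.11 ± 0.10 and 2.47 ± 0.10 on the log2 scale. Among 11 tested transporters, 5 rose and 5 fell in WT by day 4, near the shares over all genes. Slc7a5, the large neutral amino acid transporter, fell by 3.05, while Slc38a4 rose by 2.56 ± 0.06 and reached a lower level in alphaKO (-1.31 ± 0.06 against WT at day 4). At day 4, 5 transporters were called higher and 4 lower in alphaKO, and 4 and 4 for fullKO, with medians of 0.11 and -0.02 against 0.06 and 0.02 over all genes.

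Among 7 regulators, 4 fell and 2 rose in WT by day 4 (36.7% and 40.7% of all genes). Against WT at day 4, 2 were called higher and 3 lower in alphaKO (28.7% and 24.0%), and 4 and 3 in fullKO (25.1% and 24.5%). Atf4, which drives many of these enzymes under amino acid stress, fell from 276 ± 6.61 to 125 ± 3.15 CPM (SD) in WT. Trib3, a known ATF4 target, was higher than WT in fullKO at day 0 (1.56 ± 0.10) and day 4 (1.21 ± 0.16). In alphaKO it was higher at day 0 (0.56 ± 0.09). Ddit3 was higher than WT in fullKO at day 0 (0.95 ± 0.14) and lower at days 2 and 4 (-0.40 ± 0.11 and -0.92 ± 0.11). In alphaKO Ddit3 was lower at days 2 and 4 (-0.30 ± 0.11 and -0.90 ± 0.11). Mycn ran from 412.5 CPM in WT at day 0 to 34.3 at day 2 and 42.4 at day 4, and in alphaKO from 172 to 31.5 and then 102 CPM. Mycn was thus higher in alphaKO at day 4 than at day 2. It exceeded WT at day 4 by 1.25 ± 0.06 in alphaKO and by 0.57 ± 0.06 in fullKO. Its relative Myc went the other way, from 80.3 CPM in alphaKO at day 2 to 41.2 at day 4. Myc was lower than WT at day 0 (-0.88 ± 0.08 in alphaKO, -1.40 ± 0.09 in fullKO) and at day 4 (-0.64 ± 0.09 and -0.47 ± 0.08). In fullKO it was also lower at day 2 (-0.73 ± 0.08). The part of these regulators in the levels of the enzyme genes was not tested.

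Genes outside the pathway with the most similar course over the 9 groups were named by Pearson's r among 11804 genes. For Tdh they were Pot1a (r = 0.996), Rps28, Anp32a, Tnrc6c and Mzt2 (r = 0.988), of which Anp32a had the widest range, from 428 CPM in fullKO at day 0 to 57.4 in WT at day 4. For Gldc they were Sae1 (r = 0.998), Kat8, Fcf1, Rps27 and Eno1 (r = 0.994). A correlation over 9 means on a log scale is blind to size: Pot1a ranged from 57.4 CPM in alphaKO at day 0 to 21.5 in WT at day 4, a much smaller span than that of Tdh.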

How the data were processed

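RNA was extracted and stranded mRNA libraries were made from 26 samples of KH2 mouse ESC, per the labels' protocols. The values are counts of reads per gene and library as deposited. The submitters' processing notes name FastQC, STAR 2.7.1a and mm10. The tool, strand setting and annotation of the counting step were not given in the sources used here. By Ensembl identifier, 55230 of 55471 genes matched GENCODE M21 and 241 did not. CPM per kb used the union of a gene's exons there.

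Counts were fitted with edgeR 4.0.16 in R 4.3.3, after filterByExpr (18412 genes) and TMM scaling, in 1 quasi-likelihood fit of all libraries with 9 group means (17 residual degrees of freedom). Adjusted p-values are Benjamini-Hochberg over all genes tested. Of the 23 comparisons, the 3 between days 2 and 4 within or between knockout genotypes were added after values were seen, as was the CCAAT search. The enzyme genes and the pathway and marker lists were chosen with earlier results of these data known. Named genes are all 10 enzymes, Nap1l1, the markers, up to 3 called genes with the largest change from each pathway list per comparison (group mean of at least 5 CPM), and the 5 genes most correlated with Tdh and with Gldc over group means of the log2 of CPM plus 0.5. Some genes that this rule takes are left out here. Sequences come from RefSeq promoter tables on GRCm38.p6. The fit was tested on simulated counts. It was repeated with DESeq2 1.42.0, RLE scaling, other filters on low counts, TMM without chromosomes 1, 14 and Y, the groups compared alone, a replicate block, a 2-fold threshold and each library left out in turn. Whether replicates were separate cultures is not in the labels, so the p-values reflect spread between libraries that may be technical. No 2 libraries were identical. Figures were drawn with Python 3.11.15 and matplotlib 3.10.9.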

Additional observations from a re-analysis of the deposited data

Results flagged for a closer look

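Several enzyme genes changed over the days by an amount that differed between genotypes in the direct test of that difference. Values are the change in the first genotype less that in the second, on the log2 scale, from edgeR's quasi-likelihood test with Benjamini-Hochberg adjustment over all genes. Groups of 3 libraries were too small for a check of single outlying libraries.

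For alphaKO less WT from day 0 to day 2, Tdh led with 1.67 ± 0.12, followed by Gldc (0.58), Mthfd1l (0.55), Gcsh (0.51), Shmt1 (0.46) and Amt (0.30). From day 0 to day 4 the values were 2.73 for Tdh, 1.30 for Gcat, 0.89 for Gldc, 0.87 for Shmt1, 0.75 for Mthfd1l, 0.73 for Mthfd2, 0.48 for Phgdh and 0.43 for Gcsh. Mthfd2 from day 0 to day 2 (0.22, adjusted p = 0.0866) passed without replicate 1 of WT at day 2 (0.28, adjusted p = 0.0380) or replicate 3 of alphaKO at day 0 (0.27, adjusted p = 0.0386).

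For fullKO less WT from day 0 to day 2, Tdh had 2.18 ± 0.11, Amt 0.67, Mthfd1l 0.46, Shmt1 0.42, Mthfd2 0.36, Gcsh 0.30 and Gldc 0.20, while Gcat was negative at -0.48 ± 0.18. The values for Gcat and Gldc passed narrowly (adjusted p = 0.0367 and 0.0303). Gcat lost its call when any 1 of replicates 2 or 3 of WT at day 0, 1 or 2 of WT at day 2, 1 or 2 of fullKO at day 0, or 2 or 3 of fullKO at day 2 was left out, with values of -0.42 to -0.53 and adjusted p = 0.0530 to 0.150. Gldc lost it without any 1 of replicates 1 or 2 of WT at day 0, 1 or 2 of WT at day 2, 1 or 2 of fullKO at day 0, or 1 or 2 of fullKO at day 2, with values of 0.14 to 0.21 and adjusted p = 0.0629 to 0.163.

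From day 0 to day 4 in fullKO less WT, the values were 2.03 for Tdh, 1.02 for Gcat, 0.68 for Mthfd1l, 0.64 for Shmt1, 0.40 for Gldc and 0.37 for Mthfd2. Mthfd2 lost its call without replicate 2 of WT at day 4 (0.26, adjusted p = 0.116) or replicate 1 of fullKO at day 4 (0.33, adjusted p = 0.0507). Amt (0.20, adjusted p = 0.0535) passed without replicate 3 of WT at day 0 (adjusted p = 0.0368), replicate 2 of WT at day 4 (0.0390), replicate 1 of fullKO at day 4 (0.0473), or replicates 1 or 2 of alphaKO at day 0 (0.0371 and 0.0388). Amt also passed with DESeq2 (adjusted p = 0.0418), RLE scaling (0.0404), a filter at 1 CPM (0.0477) and a fit of only the groups compared (0.0321). Gcsh (0.15, adjusted p = 0.0903) passed without replicate 2 of WT at day 4 (0.20, adjusted p = 0.0230) or replicate 1 of fullKO at day 0 (0.21, adjusted p = 0.0406), and with only the groups compared fitted (0.19, adjusted p = 0.0394).

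Between the knockout genotypes, the change from day 2 to day 4 in alphaKO less that in fullKO was 1.22 ± 0.10 for Tdh, 0.51 ± 0.11 for Mthfd2, 0.50 ± 0.09 for Phgdh and 0.23 ± 0.06 for Shmt2. Shmt1 (0.19, adjusted p = 0.0675) passed without replicate 2 of fullKO at day 2 (0.22, adjusted p = 0.0337).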

How the results depend on the processing

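No difference that passed the test changed its direction in any alternative run, while small differences that did not pass, such as Gldc in alphaKO against WT at day 4, changed sign in some. Counts of enzyme genes called stayed within 1.5 times of the reported ones in every alternative but a threshold of at least 2-fold. There they were 5 for WT day 4 against day 2, 2 and 1 for alphaKO and fullKO day 4 against day 2, and 1 for the difference of those changes. For alphaKO against WT they were 0, 1 and 2 at days 0, 2 and 4, for fullKO against WT 0, 2 and 2, and for alphaKO against fullKO 0 on each day. For the change less that of WT from day 0 to days 2 and 4 they were 1 and 2 in alphaKO and 1 and 2 in fullKO. Over all genes this threshold cut called genes from 13014 to 6208 for WT day 2 against day 0, from 14251 to 8675 for day 4 against day 0, from 7105 to 1353 for alphaKO and from 6250 to 1945 for fullKO against WT at day 0, from 9707 to 2922 and from 9128 to 2489 at day 4, and by 1.743 to 5.828 times in the comparisons not named.

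With each library left out in turn, counts of enzyme genes ranged from 9 to 10 for alphaKO day 2 against day 0 and day 4 against day 2, 5 to 6 for either knockout genotype against WT at day 0, 8 to 9 for fullKO against WT at day 2, 4 to 6 and 4 to 5 for alphaKO against fullKO at days 2 and 4, 6 to 7 for the change from day 0 to 2 in alphaKO less WT, 6 to 8 and 6 to 7 for those of fullKO from day 0 to 2 and to 4, and 4 to 5 for alphaKO less fullKO from day 2 to 4. They did not move in the other 12 comparisons. Over all genes, the comparison of alphaKO with fullKO at day 0 gave 3521 calls without replicate 1 of fullKO and 5344 with it.

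Same-numbered libraries did not deviate together (correlations -0.118 to 0.125), and 6 of 26 libraries correlated best with their own number, so numbers were not taken as pairs. With a replicate block, Gldc in fullKO against WT at day 2 lost its call (-0.12, adjusted p = 0.0504), leaving 8 of 10, and no other call on these genes changed. In the change from day 0 to day 2 in fullKO less WT, Gldc also lost its call with no low-count filter (adjusted p = 0.0742) and with scaling without chromosomes 1, 14 and Y (adjusted p = 0.0518), and Gcat with no low-count filter (adjusted p = 0.0854). The causes of these changes were not tested. Gcat and Tdh in WT at days 2 and 4 have the lowest counts, and their small differences carry the largest errors.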
